A study of Mus musculus with 10 samples.

Results

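The histone genes and histone variants on the array were followed through the knockdown of 4 subunits of the INO80 chromatin remodelling complex. They were taken by name, as every non-control probe whose gene name on the array starts with Hist1h, Hist2h, Hist3h, Hist4h, H2af, H3f3 or H1f. This gave 67 of 41174 probes and 47 of 28779 genes, namely 34 replication-dependent genes (the Hist names) and 13 variant genes. The cells were J1, a mouse embryonic stem cell line, grown in ESGRO medium, with M15 medium used for the transfection. The 5 groups received a non-targeting siRNA (NT) or siRNA against Ino80 (the ATPase of the complex), Ino80b, Ino80c or Ino80e, and total RNA was collected 96 hours later, on day 4. Each group had 2 arrays, which the design text calls biological replicates, so p-values rest on the spread between these 10 samples. Both NT arrays lay alone on 1 of the 3 slides, the Ino80 and Ino80b arrays shared another slide, and the Ino80c and Ino80e arrays shared the remaining slide. NT and its slide can therefore not be told apart.

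Replication-dependent histone genes supply the bulk of the core and linker histones while DNA is copied. They lie in clusters, lack introns, and their mRNAs normally end in a conserved stem-loop in place of a poly(A) tail, which the stem-loop binding protein recognises. Variant histones such as H2A.Z, macroH2A, H3.3 and the linker histone H1.0 are made outside S phase as well, from genes whose mRNAs are polyadenylated. INO80 slides nucleosomes and acts on nucleosomes that contain H2A.Z. The labelling kit named in the labels primes copying with oligo-dT, so the part of the replication-dependent signal that came from polyadenylated transcripts was not tested.

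The probe sequences, read from the deposited scanner files, show what each histone signal can stand for. First, 3 replication-dependent probes reached the 3′ stem-loop. Each is given as the 30 bases around it, 5′ to 3′, with the stem-loop bases in capitals.
Hist1h3a: aattaaccaaaGGCTCTTTTCAGAGCCaca
Hist1h2ab: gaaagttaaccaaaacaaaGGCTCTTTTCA
Hist1h2ae: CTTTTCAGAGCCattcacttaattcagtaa
On build mm7 these stretches lie at chr13:23127689-23127718 (minus strand), chr13:23117355-23117384 (plus strand) and chr13:22936643-22936672 (minus strand). The Hist1h3a probe held all 16 bases of the loop and the Hist1h2ab probe the first 11. The Hist1h2ae probe began with the last 12 and ran on past the loop, into sequence that a transcript ending at the usual position lacks.

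The H2B and H4 probes are shown because they were nearly the same as one another. Capitals mark bases that differ from the Hist1h2bk probe in the H2B set and from the Hist1h4f probe in the H4 set, over the stretch where 2 probes overlap.
Hist1h2bk: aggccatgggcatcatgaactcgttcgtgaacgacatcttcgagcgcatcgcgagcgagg
Hist1h2bm: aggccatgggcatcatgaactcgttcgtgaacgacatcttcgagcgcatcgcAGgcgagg
Hist3h2bb: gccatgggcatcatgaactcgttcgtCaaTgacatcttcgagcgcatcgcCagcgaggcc
Hist1h2ba: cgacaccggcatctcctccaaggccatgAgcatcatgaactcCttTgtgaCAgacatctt
Hist1h4d: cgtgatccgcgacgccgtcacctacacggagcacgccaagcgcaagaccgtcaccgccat
Hist1h4f: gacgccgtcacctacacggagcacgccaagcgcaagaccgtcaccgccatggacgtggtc
Hist2h4: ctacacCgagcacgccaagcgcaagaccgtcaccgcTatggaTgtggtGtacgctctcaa
In the order printed, these lie on mm7 at chr13:21402048-21402107, chr13:21088259-21088318, chr11:59035740-59035799, chr13:23299744-23299803, chr13:22947598-22947657, chr13:22917373-22917432 and chr3:96136980-96137039. Against Hist1h2bk, the Hist1h2bm probe differed at 2 of 60 bases, Hist3h2bb at 3 of 58 and Hist1h2ba at 5 of 40. The Hist1h4d and Hist1h4f probes shared 50 bases with no difference, and Hist2h4 differed from Hist1h4f at 4 of 49. Of the 43 genes tested, 12 had a probe with such a partner (at least 85% identity over 40 or more bases, or a shared run of 25 bases). The accessions listed for the replication-dependent probes belonged to 1 gene for 24 of 44 probes, to several genes for 13 and to no gene of the RefSeq table for 7. A signal under a single H2A, H2B, H3 or H4 name may thus be that of several copies, and the names below are those of the array.

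The array measured 43 of the 47 genes, 31 replication-dependent and 12 variant, and the probes used were well above background on all 10 arrays. Hist1h2ac, Hist1h2be and Hist2h2aa2 among the replication-dependent genes, and the testis linker histone H1fnt among the variants, were not well above background on both arrays of any group and were not tested. Over all probes, 66.4% to 79.0% were well above background on an array, and no spot was saturated. Each targeted RNA stood at 19.8% to 43.6% of NT in its own knockdown, and only that of Ino80e did not pass limma's test over all genes (adjusted p = 0.0817). The stem cell markers were present throughout (10 of 10 well above background on every array). With adjusted p under 0.05 they were lower for 5 of 10 in the Ino80 knockdown, 4 in Ino80b, 3 in Ino80c and 0 in Ino80e. The shares of all genes called lower were 4.76%, 2.66%, 1.58% and 0%, and no gene at all was called in Ino80e. Of 16 fibroblast feeder markers, 12 to 14 were well above background, and the log2 of their summed level ranged from 5.30 to 5.34 in NT and from 4.82 to 5.48 in the knockdowns. Of the 14 tested, 5 were called higher and 1 lower in Ino80, 2 higher in Ino80b, 3 higher in Ino80c and 0 in Ino80e. The shares of all genes called higher were 7.5%, 3.75%, 4.8% and 0%. The part of feeder cells in the histone values was not tested. With RNA from whole cultures, more RNA per cell and more cells of a kind cannot be told apart.

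Replication-dependent histone genes of 4 classes rose in the Ino80 knockdown, and no variant gene passed the test. Of 31 replication-dependent genes tested, 7 were called higher and 0 lower by limma (adjusted p under 0.05 over 20661 genes). Among all genes, 7.5% were called higher and 4.76% lower in that comparison. The called genes encode H1 (Hist1h1d), H2B (Hist3h2ba, Hist1h2ba), H3 (Hist1h3a) and H4 (Hist1h4a, Hist2h4, Hist1h4d), and the 9 H2A genes tested gave no call. The median log2 fold change of the 31 genes was 0.67, which lay 0.51 above the median of all genes (0.17). The 31 names are not independent measurements, since similar probes can bind the same transcripts. The probes of 19 list 1 gene (5 called, median 0.70), those of 11 list several (2 called, median 0.38) and 1 matched none (0.76, not called). A probe that lists 1 gene can still be similar to others. The called Hist1h2ba and Hist2h4 probes list 1 gene each and have near-identical partners, shown above. Both Ino80 arrays lay above both NT arrays for 25 of the 31 genes and below them for 0, where 35.5% of all genes lay above and 54% did not overlap in either direction. For the 12 variants the median lay at -0.03 relative to all genes, and 1 lay above and 1 below without overlap.

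**Figure D1:**
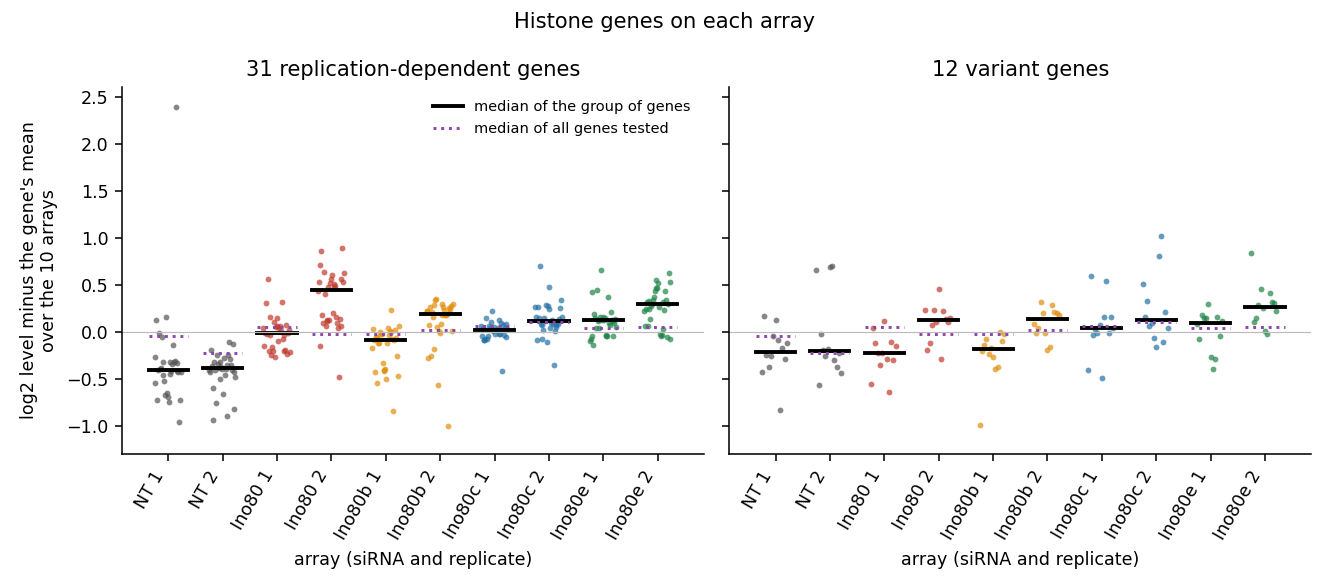
Log2 level of each replication-dependent (left) and variant (right) histone gene on each array, as the difference from that gene's mean over the 10 arrays; 1 point is 1 gene, black bars are medians of the genes shown and dotted bars medians of all genes tested. The replication-dependent medians are lowest on the NT arrays (-0.41 and -0.39) and highest on Ino80 replicate 2 (0.44); the high point on NT replicate 1 is Hist2h2be.

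The Ino80 arrays were not alike in this. The replication-dependent median lay 0.44 above the 10-array mean on replicate 2 and at -0.02 on replicate 1, against -0.41 and -0.39 on the NT arrays. The count of 7 was sensitive to the arrays included. It was 0 without Ino80 replicate 2 (2.71% of all genes called) and 0 without any 1 of the 6 Ino80b, Ino80c and Ino80e arrays (7.42% to 7.81%), which the fit uses only for the spread. It was 2 without NT replicate 1 (Hist1h2ae and Hist1h4i, none of the 7), 1 without NT replicate 2 (Hist2h2be, lower) and 11 without Ino80 replicate 1, with 5 of the 7 among them. In these fits 16%, 4.02% and 9.21% of all genes were called. The 7 genes stayed above NT in all 22 settings tried, and each passed in 7 to 9 of them. Settings that change only the spread, such as the prior, array weights, the replicate block or leaving out other knockdowns, leave the fold changes as they were.

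Hist3h2ba, an H2B gene outside the large cluster, had the largest fold change of the 7. Its log2 level relative to the 75th percentile of the array was 0.16 and 0.30 on the NT arrays, 1.11 and 2.01 with Ino80 siRNA, 0.86 and 1.40 with Ino80b, 1.06 and 1.37 with Ino80c, and 1.21 and 1.75 with Ino80e. All 8 knockdown arrays were above both NT arrays. It rose 2.5-fold in the Ino80 knockdown (log2 fold change 1.32 ± 0.34 SE, n = 2 arrays a group, limma adjusted p = 0.0476). Levels and differences given without the word fold are on this log2 scale throughout. Its probe lies at chr11:59030991-59031050 on mm7 and its accession matched 1 gene, with the current symbol H2bu2. The probe named Hist3h2bb, whose sequence is close to Hist1h2bk, lists an accession of that same gene. It lies at a different position, chr11:59035740-59035799 on the minus strand, and its main accession matched no gene. The names thus stand for different sites on opposite strands. Whether the Hist3h2bb probe also binds H2bu2 transcripts was not tested.

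Hist1h2ba encodes the testis form of H2B, also found in oocytes. Its levels were -0.32 and -0.14 in NT, 0.46 and 0.83 in Ino80, 0.03 and 0.41 in Ino80b, 0.39 and 0.64 in Ino80c, and 0.51 and 0.79 in Ino80e knockdown arrays. NT was lowest, without overlap with any knockdown. The rise in the Ino80 knockdown was 1.84-fold (0.88 ± 0.21, adjusted p = 0.0372). Of 10 male germ cell markers, 8 were well above background on every array and the sperm genes Acrv1 and Pgk2 on none. The log2 of their summed level was 1.39 to 1.57 in NT, 2.28 to 2.76 in Ino80, 2.11 to 2.26 in Ino80b, 2.27 to 2.41 in Ino80c and 2.06 to 2.25 in Ino80e. Of the 8 markers tested Ddx4, a germ cell RNA helicase, was called higher in the Ino80 (1.34 ± 0.22) and Ino80c (1.01 ± 0.22) knockdowns. In these knockdowns 7.5% and 4.8% of all genes were called higher. The other 7 markers were not called. Over all 8, values ran from -0.58 to 1.34 in Ino80 and from 0.11 to 1.01 in Ino80c, with Ddx4 the highest in both. The part of male germ cells, or of cross-reaction with the similar Hist1h2bk sequence, in the Hist1h2ba signal was not tested.

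Hist1h1d encodes H1.3, a linker histone that binds where DNA enters and leaves the nucleosome. Its levels were -1.46 and -1.10 in NT, -0.43 and -0.03 in Ino80, -1.17 and -0.67 in Ino80b, -0.82 and -0.47 in Ino80c, and -0.78 and -0.42 in Ino80e. Ino80b overlapped NT, and the other knockdowns lay above it. The rise in the Ino80 knockdown was 2.07-fold (1.05 ± 0.26, adjusted p = 0.0412). Of its other 2 probes, neither was well above background on any array. The probe used, at chr13:22921576-22921635 on mm7 (plus strand), covers a lysine-rich stretch of the gene and is printed because the signal rests on it alone.
Hist1h1d: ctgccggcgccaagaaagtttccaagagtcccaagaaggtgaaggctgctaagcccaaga

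Hist1h3a encodes a canonical H3 and is the called gene whose probe held the whole stem-loop. Levels were -2.03 and -1.95 in NT, -1.14 and -0.68 in Ino80, -1.79 and -1.20 in Ino80b, -1.31 and -0.81 in Ino80c, and -1.16 and -0.77 in Ino80e. Every knockdown array was above both NT arrays. The Ino80 knockdown was 2.11-fold higher (1.08 ± 0.28, adjusted p = 0.0489). Hist1h2ab and Hist1h2ae, whose probes held part of the loop and which were singled out for that after their values were seen, gave 0.70 ± 0.22 and 0.69 ± 0.23 in the Ino80 knockdown and did not pass (adjusted p = 0.083 and 0.0872).

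The H4 genes called in the Ino80 knockdown moved within a narrow range. Hist1h4a was at 2.37 and 2.36 in NT, 2.85 and 3.32 in Ino80, 2.86 and 3.11 in Ino80b, 2.83 and 2.91 in Ino80c, and 2.77 and 2.79 in Ino80e. Hist2h4 was at 3.23 and 3.25 in NT, 3.72 and 4.21 in Ino80, 3.67 and 3.90 in Ino80b, 3.62 and 3.73 in Ino80c, and 3.61 and 3.60 in Ino80e. Hist1h4d was at 3.97 and 3.99 in NT, 4.45 and 4.86 in Ino80, 4.35 and 4.65 in Ino80b, 4.43 and 4.51 in Ino80c, and 4.35 and 4.34 in Ino80e. In each of these genes NT was the lowest group, no knockdown overlapped it, and the NT arrays differed by 0.02 or less. The rises with Ino80 siRNA were 1.65-fold for Hist1h4a (0.73 ± 0.18, adjusted p = 0.042), 1.65-fold for Hist2h4 (0.73 ± 0.18, adjusted p = 0.0436) and 1.59-fold for Hist1h4d (0.67 ± 0.17, adjusted p = 0.0479). A second Hist1h4d probe, whose accessions matched that gene alone, gave 0.78 ± 0.20 (adjusted p = 0.0462 over all probes). The Hist1h4a probe, at chr13:23126834-23126893 on mm7 (minus strand), has accessions of 3 H4 genes, among them a gene that the Hist1h4d probe also lists. It is shown because the same stretch of H4 coding sequence recurs in those genes.
Hist1h4a: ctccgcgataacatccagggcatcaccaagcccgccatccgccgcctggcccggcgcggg

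**Figure D2:**
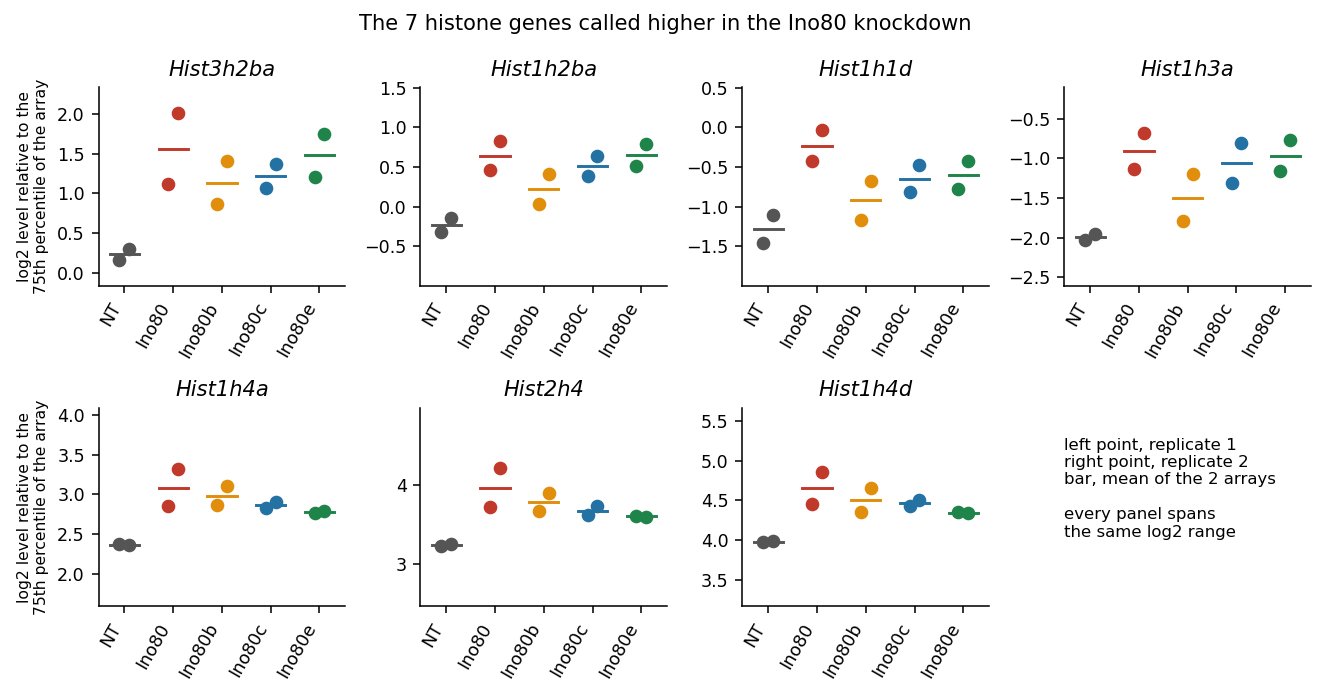
Log2 level (relative to the 75th percentile of the array) of the 7 histone genes called higher in the Ino80 knockdown, by siRNA, with 1 point per array and a bar at the mean of 2 arrays. NT is the lowest group in every panel, and in the 3 H4 genes the 2 NT points nearly coincide.

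Of the linker histone genes not called, Hist1h1e, Hist1h1b and Hist1h1a lay above NT on every knockdown array. The brightest, Hist1h1e (H1.4), was at 2.03 and 1.84 in NT, 2.41 and 3.30 in Ino80, 2.38 and 2.70 in Ino80b, 2.35 and 2.58 in Ino80c, and 2.30 and 2.5 in Ino80e. All knockdown arrays were above NT, and none of its 4 comparisons passed (0.92 ± 0.29 in Ino80, adjusted p = 0.0772). Hist1h1b (H1.5) was at 1.68 and 1.52 in NT, between 1.80 and 2.48 in Ino80 and between 1.87 and 2.17 on the other knockdown arrays. It also lay above NT on all 8 arrays and did not pass (0.54 ± 0.23 in Ino80, adjusted p = 0.155). Hist1h1c (H1.2), chosen after its values were seen because it differed from the rest, gave -0.05 ± 0.16, -0.15 ± 0.16, 0.01 ± 0.16 and 0.37 ± 0.16 in the Ino80, Ino80b, Ino80c and Ino80e knockdowns. Hist1h1t, the testis linker histone, gave 0.84, 0.08, 0.79 and 0.69 (± 0.36), and Hist1h1a (H1.1) 0.71, 0.50, 0.63 and 0.53 (± 0.21). Neither passed.

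For the brightest H2A genes the Ino80 knockdown lay nearest to NT. Hist1h2aa, which encodes the testis form of H2A, was at 7.83 and 7.91 in NT, 8.02 and 8.32 in Ino80, 8.17 and 8.44 in Ino80b, 8.37 and 8.31 in Ino80c, and 8.37 and 8.55 in Ino80e. Hist1h2af was at 7.67 and 7.75 in NT, 7.74 and 8.05 in Ino80, 7.99 and 8.28 in Ino80b, 8.05 and 8.01 in Ino80c, and 8.11 and 8.29 in Ino80e. Their log2 fold changes ran from 0.19 (Hist1h2af, Ino80) to 0.59 (Hist1h2aa, Ino80e) and did not pass. These probes and that of the variant gene H2afj are compared here since they share most of their letters, with capitals for bases that differ from Hist1h2aa.
Hist1h2aa: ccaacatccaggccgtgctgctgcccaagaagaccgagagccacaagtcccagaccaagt
Hist1h2af: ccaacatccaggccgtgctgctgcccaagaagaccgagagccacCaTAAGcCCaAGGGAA
H2afj: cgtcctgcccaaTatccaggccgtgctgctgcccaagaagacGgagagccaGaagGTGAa
They lie on mm7 at chr13:23300592-23300651, chr13:22900228-22900287 and chr6:136833216-136833275. The Hist1h2aa and Hist1h2af probes share a run of 44 bases, and the H2afj probe differed from Hist1h2aa at 7 of 52. The other H2A genes without a stem-loop probe (Hist2h2ac, Hist3h2a, Hist1h2ak, Hist1h2ai and Hist2h2aa1) gave log2 fold changes from 0.13 (Hist2h2ac, Ino80) to 0.71 (Hist1h2ak, Ino80e), and none passed. The probes of Hist3h2a disagreed. The brightest, used for all counts, gave 0.19, 0.37, 0.37 and 0.49 (± 0.18) in Ino80, Ino80b, Ino80c and Ino80e. Another probe matched to that gene gave 0.25, -0.24, -0.06 and 0.64 (± 0.20). A probe matched to no gene gave 0.07, 0.04, 0.10 and 0.14 (± 0.17). Over the 9 H2A genes, the median lay 0.14 (Ino80), 0.28 (Ino80b), 0.11 (Ino80c) and 0.30 (Ino80e) above that of all genes.

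The 3 near-identical H2B probes gave nearly the same values. Hist1h2bk was at 0.79 and 1.06 in NT, 1.49 and 1.96 in Ino80, 1.03 and 1.45 in Ino80b, 1.45 and 1.71 in Ino80c, and 1.56 and 1.91 in Ino80e. Hist1h2bm was at 0.72 and 1.02 in NT, 1.48 and 1.98 in Ino80, 1.02 and 1.40 in Ino80b, 1.47 and 1.66 in Ino80c, and 1.57 and 1.88 in Ino80e. Ino80b overlapped NT in Hist1h2bk and met it at 1.02 in Hist1h2bm, and the other knockdowns lay above. In the Ino80 knockdown the log2 fold changes were 0.80 ± 0.24 for Hist1h2bk (adjusted p = 0.0685), 0.87 ± 0.23 for Hist1h2bm (adjusted p = 0.0529) and 0.86 ± 0.26 for Hist3h2bb (adjusted p = 0.0699), and none passed. These are not independent measurements, since the probes can bind the same transcripts. A second Hist1h2bk probe gave 0.85 ± 0.22 and passed over all probes (adjusted p = 0.0472). The H2B median lay 0.69, 0.21, 0.44 and 0.66 above that of all genes in the Ino80, Ino80b, Ino80c and Ino80e knockdowns.

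The remaining H2B genes did not lie above NT in every knockdown, and were singled out for it after their values were seen. Hist2h2be was at -1.97 on NT replicate 1, at -4.66 on NT replicate 2 and between -5.37 and -3.93 on the 8 knockdown arrays. Its log2 fold changes of -1.31, -1.98, -1.24 and -0.73 (each ± 0.74) did not pass and rest on 1 NT array. Hist1h2bc was at -0.15 and -0.63 in NT, -0.57 and -0.18 in Ino80, -0.72 and -0.87 in Ino80b, -0.09 and -0.42 in Ino80c, and 0.35 and 0.24 in Ino80e. Ino80b lay below NT and Ino80e above it without overlap, and neither difference passed (-0.40 ± 0.22, adjusted p = 0.266; 0.68 ± 0.22, adjusted p = 0.112).

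Among the H3 and H4 genes not called, NT was again the lowest. Hist2h3c1 was at 5.85 and 5.83 in NT, 5.99 and 6.32 in Ino80, 6.09 and 6.38 in Ino80b, 6.25 and 6.28 in Ino80c, and 6.30 and 6.52 in Ino80e. Hist1h3d was at 5.27 and 5.32 in NT, 5.50 and 5.79 in Ino80, 5.48 and 5.77 in Ino80b, 5.61 and 5.63 in Ino80c, and 5.74 and 5.86 in Ino80e. In both H3 genes every knockdown array exceeded NT by a small margin, with log2 fold changes of 0.31 to 0.57. Hist1h4f was at 4.57 and 4.56 in NT and between 4.87 and 5.40 on the knockdown arrays (0.60 ± 0.18 in Ino80, adjusted p = 0.0673). Hist4h4 was at 1.17 and 1.11 in NT and between 1.38 and 2.22 on the knockdown arrays (0.67 ± 0.26 in Ino80, adjusted p = 0.128). Both H4 genes lay above NT on all 8 arrays. Hist1h4i, whose probe comes from an expressed sequence tag, gave 0.76, 0.73, 0.41 and 0.73 (± 0.28) in Ino80, Ino80b, Ino80c and Ino80e. None of these genes passed in any comparison.

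In the Ino80b, Ino80c and Ino80e knockdowns no histone gene passed the test, yet most replication-dependent genes lay above NT. By limma 0 of 43 genes were called in each. Among all genes 6.41% were called in the Ino80b knockdown (3.75% higher, 2.66% lower), 6.38% in Ino80c (4.8% higher, 1.58% lower) and 0% in Ino80e. At an unadjusted p under 0.05, 13 replication-dependent genes were higher and 1 lower in Ino80b, 15 higher and 0 lower in Ino80c and 19 higher and 0 lower in Ino80e, with 18 higher and 0 lower in Ino80. The share of all genes at that p in either direction was 29.4% (Ino80b), 30.6% (Ino80c), 28.5% (Ino80e) and 31.3% (Ino80). The share that was higher at that p was 19.2% (Ino80b), 23.2% (Ino80c), 21.5% (Ino80e) and 20.5% (Ino80). With normexp background correction the calls were 15 in Ino80, 4 in Ino80b, 12 in Ino80c and 17 in Ino80e, where 18.6%, 16%, 20.9% and 26.3% of all genes were called. With a trend and robust prior they were 14, 5, 7 and 11, where 17.9%, 13.7%, 12.5% and 8.2% of all genes were called. With a term for replicate number, whose meaning the labels do not give, they were 15, 12, 13 and 16. In that fit 23.7%, 17.4%, 18.1% and 9.43% of all genes were called. Other settings left 0 calls in Ino80b, Ino80c and Ino80e. These were quantile normalization (7.48%, 4.77% and 0% of all genes called), scaling to the median (3.33%, 2.57% and 0%) and array weights (2.56%, 0.624% and 0%).

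The smallest adjusted p of a histone gene was 0.0778 in Ino80b (Hist1h4a, 0.62 ± 0.18), 0.0704 in Ino80c (Hist1h2ba, 0.75 ± 0.21) and 0.0836 in Ino80e (Hist1h2ba, 0.88 ± 0.21). In the Ino80 knockdown Hist1h2ba gave 0.88 as well and was called. Its unadjusted limma p was 0.00349 there and 0.00343 in Ino80e, so the adjustment within each comparison set these calls apart. The median of the replication-dependent genes lay 0.30 (Ino80b), 0.21 (Ino80c) and 0.34 (Ino80e) above that of all genes, which itself was 0.13, 0.26 and 0.19. Every array of the knockdown lay above both NT arrays for 22 of 31 genes in Ino80b, 25 in Ino80c and 30 in Ino80e, and below them for 2, 0 and 0. The shares of all genes above in this way were 37.2%, 44.5% and 40.7%, the shares below were 21.2%, 15.9% and 17.1%, and 58.4%, 60.4% and 57.8% did not overlap in either direction. All 8 knockdown arrays lay above both NT arrays for 18 of the 31 replication-dependent genes and 1 of the 12 variants (H2afz), against 19.1% of all genes. These comparisons share their NT arrays, so a high or low NT array moves all of them. The 31 names are not independent measurements either, since similar probes can bind the same transcripts.

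**Figure D3:**
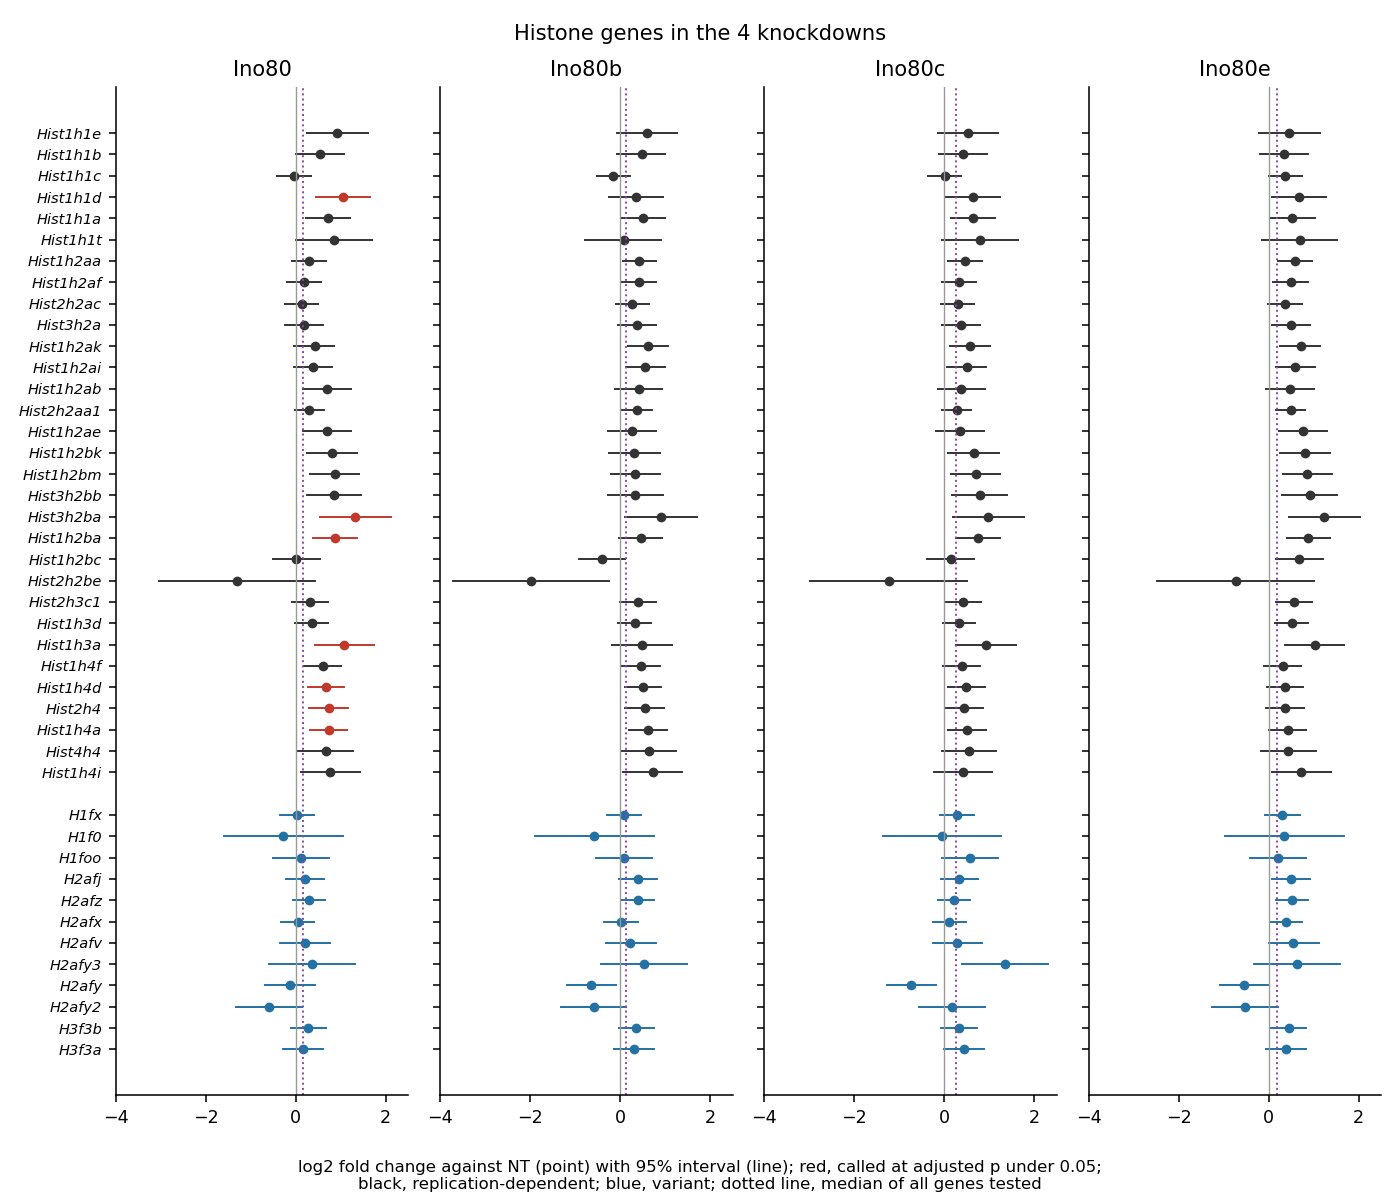
Log2 fold change of each histone gene against NT in the 4 knockdowns, with 95% intervals of the limma fit; red marks genes called at adjusted p under 0.05, black other replication-dependent genes, blue variant genes, and the dotted line the median of all genes. Calls appear in the Ino80 panel alone, while most black points lie right of the dotted line in each panel and the blue ones scatter around it in Ino80, Ino80b and Ino80c. A call also depends on the adjustment over all genes of its comparison.

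Knockdowns that shared a slide were compared directly, without NT. By limma 0 of 43 histone genes were called for Ino80b minus Ino80, where 0.0678% of all genes were (0.0581% higher, 0.00968% lower), and 0 for Ino80e minus Ino80c, where 0.0339% were (0.0194% higher, 0.0145% lower). At an unadjusted p under 0.05, Hist1h1d was lower in Ino80b than in Ino80 (-0.69 ± 0.26, adjusted p = 0.5) and Hist1h2bc higher in Ino80e than in Ino80c (0.55 ± 0.22, adjusted p = 0.431). No other histone gene reached that p, where 8.94% and 10.7% of all genes did. The replication-dependent median for Ino80b minus Ino80 lay at -0.14 relative to all genes, with 10 of 31 genes below without overlap and 0 above, where 21.4% of all genes lay below and 40.7% did not overlap in either direction. That median was positive in 1 of 22 settings, of which several leave the fold changes unchanged. Within it, the H2B median lay at -0.47 relative to all genes and the H2A median at 0.16. In Ino80e minus Ino80c the replication-dependent median lay at 0.14 relative to all genes, with 10 of 31 above and 4 below, against 20% and 26.1% of all genes, 46.1% in both directions together.

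None of the 12 variant genes passed in any comparison of the fit on all arrays. H2afz encodes H2A.Z, which marks promoters and enhancers and is the variant INO80 acts on. Its levels were 7.36 and 7.16 in NT, 7.43 and 7.67 in Ino80, 7.54 and 7.75 in Ino80b, 7.52 and 7.43 in Ino80c, and 7.69 and 7.85 in Ino80e. All 8 knockdown arrays lay above NT, by group means of 0.29, 0.39, 0.22 and 0.51 (each ± 0.15), and the smallest adjusted p was 0.102 (Ino80e). In Ino80e H2afz was called with normexp correction (0.50, adjusted p = 0.0277), as it was under the trend and robust prior (0.51, adjusted p = 0.0433). H2afv, the gene of the second H2A.Z form, was at 6.25 on both NT arrays, 6.15 and 6.74 in Ino80, 6.27 and 6.70 in Ino80b, 6.49 and 6.60 in Ino80c, and 6.65 and 6.96 in Ino80e. Ino80 overlapped NT and the rest lay above it, with log2 fold changes of 0.20 to 0.55 (± 0.24).

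H2afx encodes H2A.X, which is phosphorylated around DNA breaks. It was at 6.84 and 6.70 in NT, 6.65 and 6.99 in Ino80, 6.71 and 6.87 in Ino80b, 6.95 and 6.81 in Ino80c, and 7.18 and 7.13 in Ino80e. Ino80e alone lay clear of NT (0.38 ± 0.16, adjusted p = 0.161). H2afj, an H2A variant close in sequence to the canonical form, was at 7.70 and 7.88 in NT, 7.85 and 8.15 in Ino80, 8.0 and 8.39 in Ino80b, 8.11 and 8.14 in Ino80c, and 8.22 and 8.36 in Ino80e. Its other probe, further along the gene, went the opposite way, with -0.44, -0.37, -0.43 and -0.09 (± 0.24), so no direction can be given for H2afj.

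The macroH2A proteins carry a large extra domain and mark silent chromatin. H2afy (macroH2A1) was at 2.16 and 2.73 in NT, 2.15 and 2.49 in Ino80, 1.77 and 1.84 in Ino80b, 1.55 and 1.88 in Ino80c, and 1.77 and 2.05 in Ino80e. The Ino80 arrays overlapped NT, and the other 6 lay below both NT arrays. The differences were -0.13, -0.64, -0.73 and -0.54 (± 0.23) in Ino80, Ino80b, Ino80c and Ino80e, with adjusted p of 0.738, 0.126, 0.0931 and 0.18. A second H2afy probe gave -0.09, -0.50, -0.67 and -0.48 (± 0.29). In the Ino80c knockdown H2afy was called lower with normexp correction (-0.69, adjusted p = 0.0397) and without NT replicate 1 (-1.02, adjusted p = 0.0389). A fit to the values of the authors' deposited table also called it (-0.89, adjusted p = 0.0354).

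H2afy2 (macroH2A2) was at -2.66 and -1.87 in NT, -2.86 on both Ino80 arrays, -2.97 and -2.73 in Ino80b, -2.41 and -1.77 in Ino80c, and -2.97 and -2.60 in Ino80e. Ino80 and Ino80b lay below NT, the others overlapped it, and the differences of -0.60, -0.59, 0.17 and -0.52 (± 0.31) did not pass. The probe named H2afy3 was at 1.83 and 2.36 in NT, 2.02 and 2.88 in Ino80, 2.29 and 2.95 in Ino80b, 3.20 and 3.68 in Ino80c, and 2.37 and 3.08 in Ino80e. Ino80c stood above every other array, with 1.35 ± 0.41 (2.54-fold) and an adjusted p of 0.0828. It was called with normexp correction (1.32, adjusted p = 0.0286), as it was under the trend and robust prior (1.35, adjusted p = 0.0361). Its accession is not in the RefSeq table, so the gene behind the name was not checked.

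The H3.3 genes H3f3a and H3f3b encode the same protein, which is placed into chromatin outside replication. H3f3a was at 5.91 and 5.98 in NT, 5.90 and 6.31 in Ino80, 6.11 and 6.40 in Ino80b, 6.36 and 6.41 in Ino80c, and 6.16 and 6.51 in Ino80e. H3f3b was at 6.70 and 6.38 in NT, 6.67 and 6.96 in Ino80, 6.79 and 7.0 in Ino80b, 6.86 on both Ino80c arrays, and 6.93 and 7.04 in Ino80e. In both genes Ino80 overlapped NT and the other knockdowns lay above it. Log2 fold changes ran from 0.16 to 0.45 and did not pass. With normexp correction H3f3b was called in Ino80e (0.49, adjusted p = 0.0328).

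**Figure D4:**
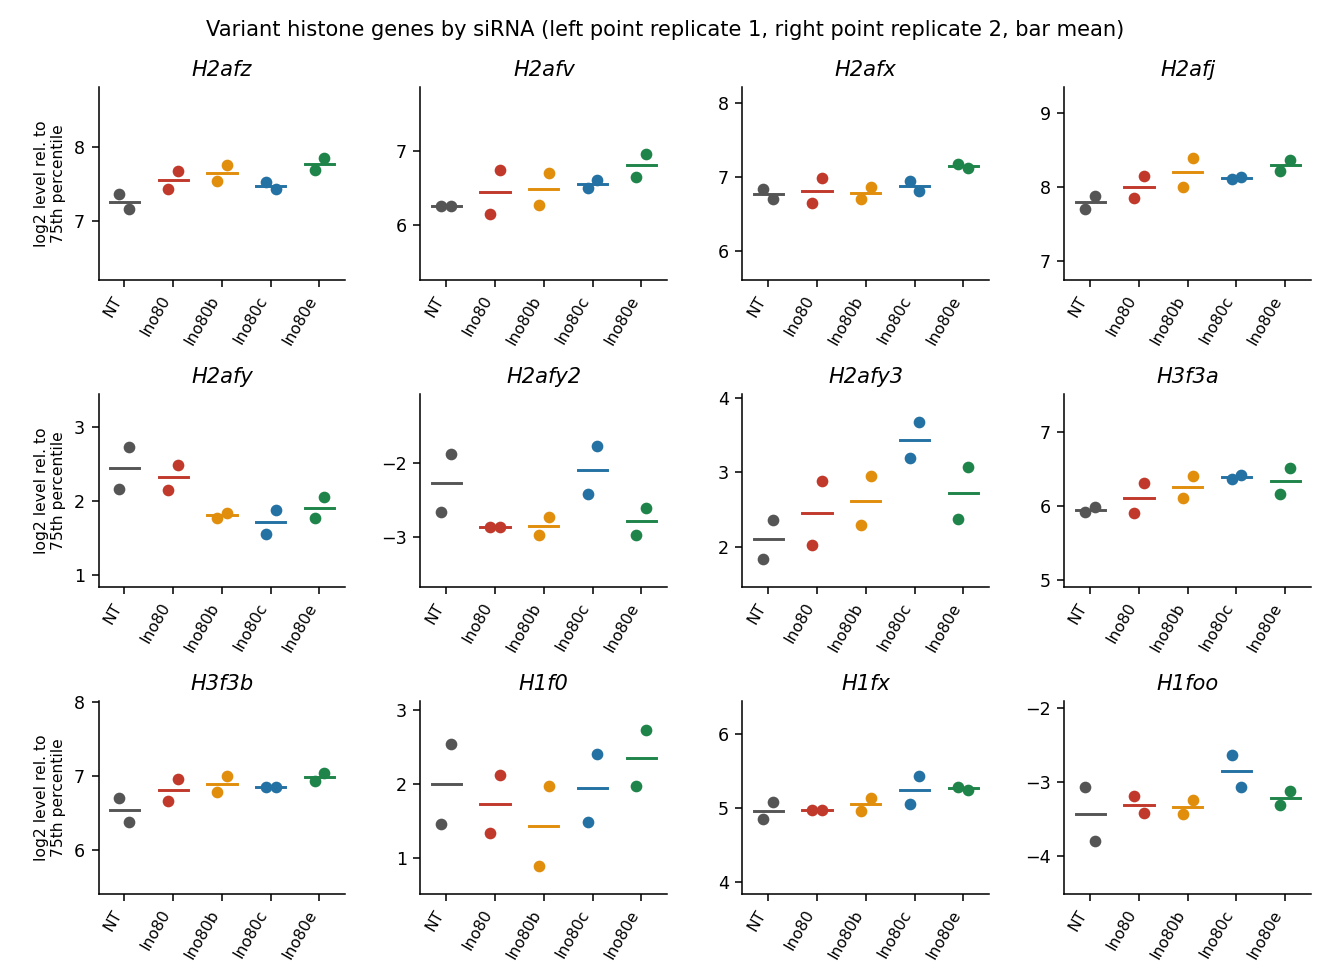
Log2 level (relative to the 75th percentile of the array) of the 12 variant histone genes by siRNA, with 1 point per array and a bar at the mean; each panel spans the same log2 range. H2afz lies above NT in all knockdowns, H2afy below NT in Ino80b, Ino80c and Ino80e, and replicate 2 lies above replicate 1 in all 5 groups for 6 of the 12 genes, by most on average in H1f0.

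The variant linker histones depended on the probe. H1f0 encodes H1.0, a linker histone that accumulates as cells stop dividing or differentiate. On the probe used it was at 1.47 and 2.55 in NT, 1.34 and 2.13 in Ino80, 0.90 and 1.98 in Ino80b, 1.49 and 2.41 in Ino80c, and 1.98 and 2.74 in Ino80e. Replicate 2 exceeded replicate 1 by 0.76 to 1.08 in every group, more than any difference between the knockdowns and NT. Those were -0.28, -0.57, -0.06 and 0.35 (± 0.56), whereas its other 2 probes, which overlap each other, gave -1.55 and -1.46 in Ino80b and between -0.75 and 0.00 in the other knockdowns. None passed.

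H1fx encodes H1.10, another linker histone made throughout the cell cycle. The probe used for it, the brightest, comes from an expressed sequence tag with no listed position or RefSeq match. It was at 4.85 and 5.08 in NT and between 4.96 and 5.43 on the knockdown arrays, with log2 fold changes of 0.02 to 0.30 (± 0.16). The other probe carries the RefSeq accession of the gene (current symbol H1f10) and lies at chr6:88056136-88056195 on mm7, minus strand. It is printed because it gave the opposite picture.
H1fx: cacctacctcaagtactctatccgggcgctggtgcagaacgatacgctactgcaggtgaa
On this probe H1fx was at -0.02 and 1.36 in NT, -0.70 and -0.72 in Ino80, -1.01 and -0.72 in Ino80b, -1.01 and -0.46 in Ino80c, and -0.72 and -0.36 in Ino80e. All 8 knockdown arrays lay below both NT arrays, which stood far apart themselves. On the probes that stand for the genes in the fit, 1570 of 20661 genes lay below NT in this way. The differences of this H1fx probe, -1.38, -1.53, -1.41 and -1.21 (± 0.42), did not pass over all probes (adjusted p = 0.0757, 0.0728, 0.0871 and 0.128). H1foo, the oocyte linker histone, was at -3.06 and -3.79 in NT and between -3.43 and -2.63 on the knockdown arrays, which overlapped NT in every group. Without NT replicate 1 it was called higher in Ino80c (0.94, adjusted p = 0.047).

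**Figure D5:**
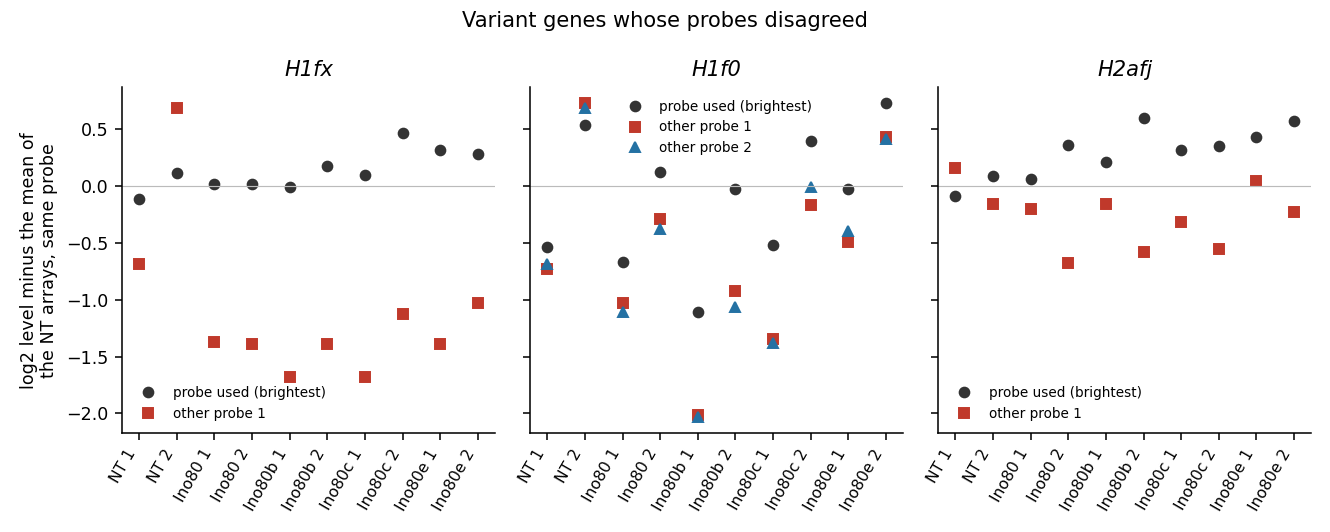
Log2 level of each measured probe of H1fx, H1f0 and H2afj on each array, as the difference from the mean of that probe's NT arrays; black points are the brightest probe, which stands for the gene in the fit. For H1fx the other probe (squares) lies below both NT arrays on all 8 knockdown arrays while the brightest stays near NT.

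Genes that make and handle histones were read from fixed lists. In the Ino80 knockdown, where 7.5% of all genes were called higher and 4.76% lower, each list had 1 or 2 calls. Of 15 genes for transcription and 3′ end formation of replication-dependent histone mRNA, Cstf2, a subunit of the cleavage stimulation factor, was called higher in the Ino80 (0.57 ± 0.13, adjusted p = 0.0334) and Ino80c (0.62 ± 0.13, adjusted p = 0.0391) knockdowns. The other 14 were not called in any comparison, and the list median lay between -0.12 and 0.11 relative to all genes in the 4 knockdowns. Of 25 histone chaperones and importins, Ipo9, an import receptor for H2A and H2B, was called lower with Ino80 siRNA (-1.0 ± 0.23, adjusted p = 0.037). It stood at -1.0, -0.86 and -0.96 in Ino80b, Ino80c and Ino80e without passing.

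Of 10 measured genes that load or remove H2A.Z, Vps72 (-0.95 ± 0.24, adjusted p = 0.0469), the subunit of the SRCAP and TIP60 complexes that binds H2A.Z, was called lower with Ino80 siRNA. So was Actl6a (-0.47 ± 0.12, adjusted p = 0.0427), an actin-related subunit of several remodelling complexes. Vps72 stood at -0.88, -0.99 and -0.96 in the other knockdowns without passing. Of 23 S phase genes Mki67 was called higher (0.64 ± 0.16, adjusted p = 0.0453) and Rrm2, a subunit of ribonucleotide reductase, lower (-0.51 ± 0.13, adjusted p = 0.0443) in the Ino80 knockdown. The S phase median lay at -0.12, 0.04, -0.14 and 0.01 relative to all genes in Ino80, Ino80b, Ino80c and Ino80e, whereas the replication-dependent histone median lay at 0.51, 0.30, 0.21 and 0.34. The part of the share of cells in S phase in the histone values was not tested.

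The promoters of the members, taken from RefSeq on GRCm38.p6 as 250 bases before to 50 bases after the start, were searched on both strands. They were found for 27 replication-dependent and 10 variant genes. The motif CCAAT, which the factor NF-Y binds, was in 25 of the 27 and 6 of the 10, against 37.9% of all 27025 promoters. The letters TATAAA were in 18 and 1, against 14.2%, and ATTTGCA, part of the octamer that OCT1 binds, in 9 and 1, against 3.98%. By class, ATTTGCA was in 6 of 10 H2A and 3 of 5 H2B promoters and in none of the 12 H1, H3 and H4 promoters. Of the 7 called genes, the 5 with a promoter in the table all had CCAAT and TATAAA, which 25 and 18 of the 27 held. Hist1h2aa and Hist1h2ba are transcribed away from each other, and their windows share 220 bases, so motifs there were counted for both genes. The stretch before the Hist1h2aa start, at chr13:23934187-23934436 on the plus strand, is printed because it serves a called gene and an uncalled one. Capitals mark the motifs.
Hist1h2aa promoter: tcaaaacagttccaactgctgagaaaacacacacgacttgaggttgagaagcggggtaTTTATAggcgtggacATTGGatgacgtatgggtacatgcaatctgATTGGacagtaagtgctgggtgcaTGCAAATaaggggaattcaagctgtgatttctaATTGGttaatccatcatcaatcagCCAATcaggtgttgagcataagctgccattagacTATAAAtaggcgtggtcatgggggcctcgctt
It holds CCAAT in 4 places, the octamer letters in 1 and TATAAA in 2, namely 32 bases before the Hist1h2aa start and, on the other strand, 192 bases before it. From this shared stretch Hist1h2ba gave 0.88, 0.46, 0.75 and 0.88 (± 0.21) and Hist1h2aa 0.30, 0.43, 0.47 and 0.59 (± 0.16) in the Ino80, Ino80b, Ino80c and Ino80e knockdowns. The difference between the genes was not tested, and the similar probes above limit what either name stands for.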

How the data were processed

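Each sample was hybridised to 1 Agilent 4x44K array. The scanner images were read by Feature Extraction 9.5.3.1, per the file headers, and each deposited file gives a processed signal, a green-channel intensity that is background-subtracted and not scaled between arrays, whereas the labels name the dye Cy5. The value table that the authors deposited is on a log2 scale, each column equal to the log2 mean signal of that array plus a constant, with medians of 6.76 to 6.87; the origin of that scaling stays unknown. Control spots and outlier flags were left out, and 31 probes with them. Log2 intensity minus the array's 75th percentile was fitted with limma 3.58.1 in R 4.3.3 (files read with the data.table package, version 1.17.8) on all 10 arrays, with group as the only term (5 residual and 2.23 prior degrees of freedom). A probe was kept if any group had it well above background on each of its arrays (29587 probes), the brightest probe stood for its gene (20661 genes), and two-sided p-values were adjusted within each comparison over all genes (Benjamini-Hochberg). Errors (±) are standard errors of that fit. The fit was tested on simulated data. The number of arrays limits the precision.

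Members of the 67 probes were named as on the array, and 54 matched RefSeq (GRCm38.p6). Named with values by rule were all called histone genes, all variants, the 2 brightest uncalled genes of each replication-dependent class, and called genes of the fixed lists. Other uncalled replication-dependent genes, such as Hist1h1a, Hist1h1t, Hist1h4i and Hist3h2bb, were given with values outside this rule. The 6 comparisons were each knockdown with NT and the same-slide pairs. Members and lists were chosen with earlier results of these data known. Alternatives tried were the background correction, scaling, deposited table, dim-probe filters, probe summaries, the arrays fitted, prior, array weights, the replicate block and leaving out each array.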

Additional observations from a re-analysis of the deposited data

Results flagged for a closer look

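Hist1h2bc, an H2B gene, differed in direction between knockdowns. Both Ino80b arrays lay below both NT arrays (log2 fold change -0.40) and both Ino80e arrays above them (0.68). Neither difference passed limma's test over all genes, and the difference between them was not tested.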

How the results depend on the processing

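Counts of histone genes called depended on the setting, and the share of all genes called, given in parentheses, moved as well. In the Ino80 knockdown the 7 calls (12.3% of all genes called) became 15 with normexp (18.6%), 14 in the authors' deposited table (18.1%), 13 with probes well above background on all arrays (19.5%) and 14 with a trend and robust prior (17.9%). They became 0 when scaled to the median (7.44%), with no dim-probe filter (4.51%), with only the 4 arrays compared (0%) and with array weights (3.3%). Against 0 as reported, normexp gave 4 in Ino80b (16%), 12 in Ino80c (20.9%) and 17 in Ino80e (26.3%), and the trend and robust prior 5 (13.7%), 7 (12.5%) and 11 (8.2%). The deposited table (10.7%) and the stricter filter (13%) gave 1 each in Ino80c. In Ino80b, Ino80c and Ino80e the count stayed at 0 with quantile normalization, median scaling, no dim-probe filter and array weights. It was also 0 there with the mean of a gene's probes, every probe on its own and only the 4 arrays compared. In these settings 0% to 7.48% of all genes were called. Leaving out 1 array gave 0 to 11 calls in Ino80 (2.71% to 16% of all genes), 0 to 2 in Ino80b (0% to 13.9%), 0 to 3 in Ino80c (0% to 15.5%) and 0 to 1 in Ino80e (0% to 2.85%). The same-slide comparisons stayed at 0 in all 22 settings.

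With the replicate block the counts were 15 (23.7%), 12 (17.4%), 13 (18.1%) and 16 (9.43%) in Ino80, Ino80b, Ino80c and Ino80e. Differences between same-numbered arrays correlated by 0 to 0.32 between groups, and the replicates kept 1 order in all 5 groups for 21 of 43 histone genes (48.8%) and 25.6% of all genes. This is a hint of a shared effect from the data; the labels do not say what a number marks, so the block was not used as the main fit.

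The replication-dependent median stayed above that of all genes in 22 of 22 settings, by 0.18 to 0.71 (Ino80), 0.18 to 0.42 (Ino80b), 0.14 to 0.30 (Ino80c) and 0.24 to 0.42 (Ino80e). Settings that change only the spread leave these medians unchanged. The cause of these shifts in count was not tested.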
